A study of Mus musculus with 6 samples.

Results

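The mitochondrial carrier family was examined in satellite cells (SCs), the stem cells of skeletal muscle, with and without *Slug* (*Snai2*), a zinc-finger repressor that binds E-box DNA. Members were taken by name: every gene called *Slc25a* with a number, together with *Ucp1*, *Ucp2* and *Ucp3*. A gene entered if a probe set on the array was named with that gene alone, which gave 48 members of the 22180 genes measured in this way. *Ucp2* and *Slc25a52* had no such probe set in the annotation used here and were not analysed, and 1 probe set that named *Slc25a35* together with *Rangrf* was not used. The 2 groups were Slug-/- SCs and Slug+/+ SCs, with 3 arrays each, all from adult male C57BL6 mice. The cells were sorted from resting hindlimb muscle as CD45-, Sca1-, CD11b-, CD31-, CD34+ and Integrin-α7+ and lysed for RNA with no treatment and no culture. The labels give the genotype as Slug-/- with no Cre and no floxed allele, so the mice lacked *Slug* in other tissues as well as in SCs. The arrays are labelled as biological replicates, but whether each came from a mouse of its own is not said, so the p-values below measure the spread between these samples.

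Mitochondrial carriers are small proteins, nearly all in the inner mitochondrial membrane, that exchange metabolites between the cytosol and the matrix. Some trade ADP for ATP or bring in phosphate, others carry tricarboxylic acid cycle intermediates, amino acids, nucleotides, cofactors, iron or acylcarnitines, and the uncoupling proteins let protons leak back into the matrix. Resting SCs are known for few mitochondria and a low rate of metabolism, which increase as the cells leave quiescence, and the carriers set what those mitochondria can import and export.

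Values are the log2 expression values of the authors, so a difference of 1 is a fold of 2. Signals of different probe sets depend on the probes and were not set against each other as amounts of RNA. As a guide to background, 95% of 1088 olfactory receptor genes had a mean at or under 3.04. *Snai2* itself read 5.15, 5.10 and 4.59 in Slug-/- SCs, against 6.25, 6.66 and 6.53 in Slug+/+ SCs. The 2 groups did not overlap, and the difference was -1.53 ± 0.22 (SE; adjusted p = 0.435). Where its probes lie relative to the deleted sequence was not analysed here. The medians of the 6 arrays over 41345 probe sets lay between 2.87 and 2.96. All 9 SC markers of a fixed list were measured and none was at background on all arrays, with summed signals of 11.83 to 11.98 in Slug-/- SCs and 11.66 to 11.99 in Slug+/+ SCs on the log2 scale. In bulk RNA of this kind, fewer cells of a type and less RNA per cell cannot be told apart.

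No carrier gene passed an adjusted p of 0.05, in limma or in a plain unpaired test on the same values. The same held for all 22180 genes (0%), where limma's smallest adjusted p was 0.435. The members' smallest was 0.726. At an unadjusted p under 0.05, 3 members were higher in Slug-/- SCs (*Slc25a46*, *Slc25a25* and *Slc25a5*), where 3.31% of all genes were higher at that level, and 3 were lower (*Slc25a30*, *Slc25a33* and *Slc25a54*), where 2.49% of all genes were lower. Each direction thus made up 6.25% of the family. Of the 37 members with a mean above the background guide, 3 were higher (8.11%), against 5.34% of all genes above it. In the same set 2 were lower (5.41%), against 3.15%. Only *Slc25a30* also passed a fold of 2, as did 0.897% of all genes. Every Slug-/- array lay above every Slug+/+ array for 5 members (*Slc25a4*, *Slc25a5*, *Slc25a25*, *Slc25a34* and *Slc25a46*), against 5.24% of all genes, and below for 4 (*Slc25a10*, *Slc25a30*, *Slc25a33* and *Slc25a54*), against 5.4%. With 3 arrays in each group, a gene whose arrays do not overlap has an exact permutation p of 0.1, the smallest this design can give.

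**Figure D1:**
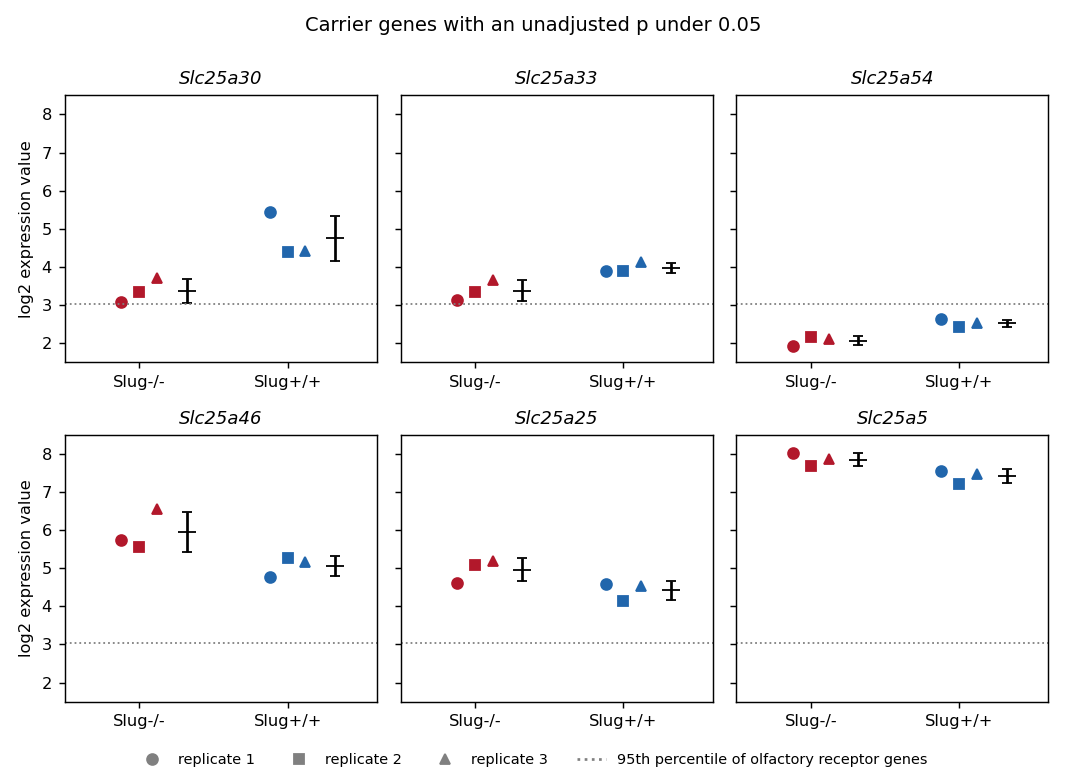
Log2 expression value on each array (y axis) for the 6 carrier genes with an unadjusted p under 0.05, with Slug-/- arrays in red on the left of each panel and Slug+/+ arrays in blue on the right. Marker shape gives the replicate number, bars show mean ± SD of 3 arrays, and the dotted line is the background guide at 3.04. In all 6 panels the groups do not overlap, and all 6 values of *Slc25a54* lie under the line.

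Over the family the differences ran between -1.38 and 0.94, and 11 members differed by more than 0.5 in either direction. The median difference was 0.07 for the 48 carriers, against -0.01 for all genes, and 28 members (58.3%) had a positive difference, against 48.4% of all genes. The share of positive differences was not the same above and under the background guide. Of 37 members with a mean above the background guide, 27 were positive (73.0%), against 54.0% of the 11912 genes above it. Of 11 members with a mean under the guide, 1 was positive (9.09%), against 41.9% of the 10268 genes under it. The split is not independent of the sign, since the mean takes in both genotypes. *Slc25a20* and *Slc25a34*, both positive, passed the guide through Slug-/- SCs alone. Their means were 3.80 and 3.45 in Slug-/- SCs, against 2.86 and 2.87 in Slug+/+ SCs. No filter on low values was applied: 32 members were above the background guide on all 6 arrays, 9 were at or under it on all 6, and the others were above it on some. The median signal of the 48 members was 3.79, 3.99 and 4.23 on the Slug-/- arrays, against 3.99, 3.89 and 3.94 on the Slug+/+ arrays. The Slug-/- arrays thus held both the lowest and the highest value, and the medians of the groups overlapped.

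**Figure D2:**
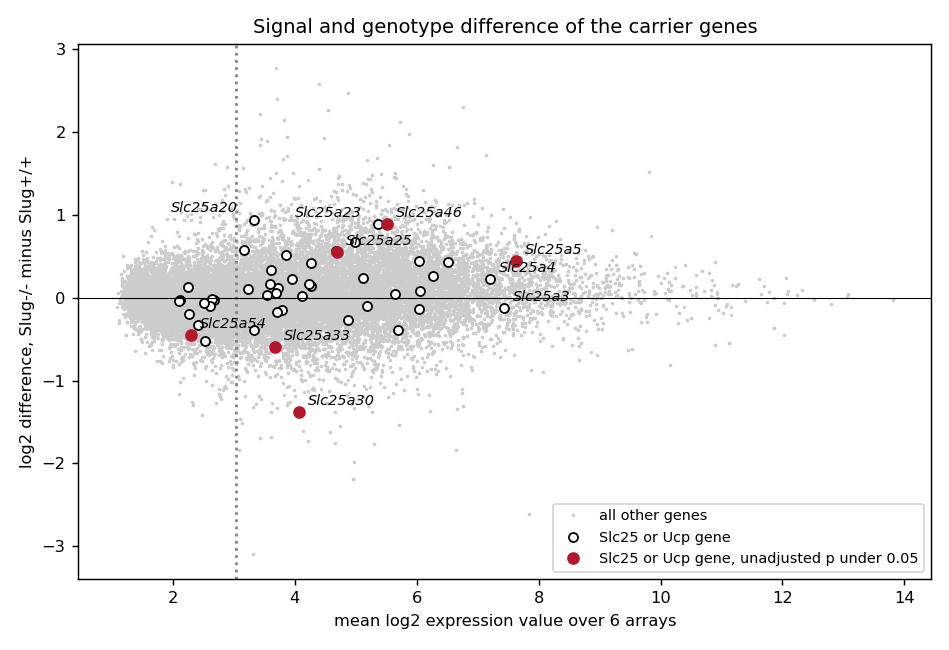
Log2 difference of Slug-/- minus Slug+/+ SCs (y axis) against the mean log2 expression value over 6 arrays (x axis), for all other genes (grey), the carrier genes (open circles) and the 6 carrier genes with an unadjusted p under 0.05 (red). The dotted line is the background guide at 3.04. *Slc25a30* lies lowest among the carriers at -1.38, and 28 of the 48 carriers lie above 0.

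The widest difference in the family was that of *Slc25a30*, a close relative of the uncoupling proteins first described in kidney mitochondria. It read 3.08, 3.35 and 3.70 in Slug-/- SCs, against 5.44, 4.40 and 4.43 in Slug+/+ SCs. All Slug-/- arrays sat just above the background guide and well below every Slug+/+ array, of which replicate 1 was the brightest. The means were 3.38 ± 0.31 in Slug-/- SCs and 4.76 ± 0.59 in Slug+/+ SCs (SD, n = 3 each). The difference of -1.38 ± 0.32 (SE; 95% interval -2.12 to -0.64) is 2.60-fold lower in Slug-/- SCs, with an unadjusted p of 0.00289 that ranked 83 of all genes and an adjusted p of 0.726. Leaving out 1 array at a time gave differences between -1.56 and -1.04, and the unadjusted p stayed under 0.05 in all 18 alternatives run. Since no carrier had more than 1 probe set, the alternatives in the choice of probe set reused the same values. They nearly repeated the main fit (unadjusted p of 0.00280 to 0.00298), as did a robust prior (0.00307), and say nothing of stability.

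Slug is known to bind the E-box spelled CAGGTG, which reads CACCTG on the other strand, so the promoters of the family were searched for these letters on both strands. RefSeq promoter windows of build GRCm38.p6, from 250 bases before to 50 after a gene's start, were found for 38 of the 48 members (48 windows). The letters were present in 9 of the 48 windows (18.8%), against 20.2% of 32851 windows of all genes, so the share in the family was close to that of promoters at large. By gene, the letters were found for 23.7% of the 38 members, against 22.6% of 27025 genes. Of the members with an unadjusted p under 0.05 and a window, *Slc25a33*, *Slc25a54* and *Slc25a5* held the letters and *Slc25a30* and *Slc25a25* did not. That makes 3 of 5, against 6 of 33 among the other members. *Slc25a46* had no window and *Slc25a54* was under background on all arrays, so 5 genes are too few to read as an enrichment. A match is a description of the letters in the window and not a site of binding. The windows of 3 members are printed to show the letters, in capitals, beside a lower gene without them (*Slc25a30*), a lower gene with them (*Slc25a33*, the first letter 91 bases before the start) and a higher gene with them (*Slc25a5*, the first letter 129 bases before the start). They lie at chr14:75786988-75787287 on the minus strand, chr4:149774218-149774517 on the minus strand and chrX:36795347-36795646 on the plus strand.
Slc25a30: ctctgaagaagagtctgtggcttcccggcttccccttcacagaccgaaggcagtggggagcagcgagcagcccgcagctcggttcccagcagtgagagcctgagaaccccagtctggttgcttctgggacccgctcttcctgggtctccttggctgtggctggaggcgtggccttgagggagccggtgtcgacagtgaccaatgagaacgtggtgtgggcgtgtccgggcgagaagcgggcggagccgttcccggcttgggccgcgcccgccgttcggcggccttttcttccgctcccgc
Slc25a33: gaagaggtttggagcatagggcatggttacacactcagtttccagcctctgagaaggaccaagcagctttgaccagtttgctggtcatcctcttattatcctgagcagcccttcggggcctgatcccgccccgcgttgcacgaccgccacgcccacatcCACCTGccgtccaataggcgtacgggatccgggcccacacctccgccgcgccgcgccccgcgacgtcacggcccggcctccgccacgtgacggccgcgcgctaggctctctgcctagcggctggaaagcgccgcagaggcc
Slc25a5: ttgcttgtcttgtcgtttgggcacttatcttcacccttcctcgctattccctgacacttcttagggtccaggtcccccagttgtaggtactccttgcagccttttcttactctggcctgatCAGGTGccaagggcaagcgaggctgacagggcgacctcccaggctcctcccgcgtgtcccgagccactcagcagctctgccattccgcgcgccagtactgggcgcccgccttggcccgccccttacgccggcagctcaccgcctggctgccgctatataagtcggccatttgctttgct

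The other uncoupling proteins and their relatives were under background on all arrays, apart from *Slc25a27*. *Ucp1*, the uncoupling protein of brown fat, read 2.44, 2.25 and 2.06 in Slug-/- SCs, against 2.88, 2.47 and 2.41 in Slug+/+ SCs. *Ucp3*, which is best known from muscle fibres and brown fat, read 2.89, 2.55 and 2.53 in Slug-/- SCs, against 2.75, 2.65 and 2.66 in Slug+/+ SCs. Neither gene exceeded the background guide on any array, so these values carry no order of expression. *Slc25a14*, another relative with its best known expression in brain, lay under the guide on all arrays too, at 2.08, 2.25 and 2.59 in Slug-/- SCs, against 2.13, 2.06 and 2.35 in Slug+/+ SCs. *Slc25a27*, also a brain form, was above the guide on all arrays, and its difference was -0.14 with a 95% interval of -1.09 to 0.81. Of the 5 members measured in this group, 4 had a negative difference, and the median was -0.14.

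The ADP/ATP carriers and the phosphate carrier, which together supply the ATP synthase and export its product, had 3 of the brightest probe sets of the family. *Slc25a5* (Ant2), the ADP/ATP carrier of dividing cells and many tissues, read 8.01, 7.67 and 7.86 in Slug-/- SCs, against 7.55, 7.20 and 7.47 in Slug+/+ SCs. The groups were apart by a narrow margin. Its difference was 0.44 ± 0.19 (SE; 95% interval 0.01 to 0.87), or 1.35-fold higher (unadjusted p = 0.0475; adjusted p = 0.858). That unadjusted p stayed under 0.05 in 11 of 18 alternatives and reached 0.146 in the others. *Slc25a4* (Ant1), the form of heart and skeletal muscle, read 7.24, 7.21 and 7.51 in Slug-/- SCs, against 7.15, 7.05 and 7.08 in Slug+/+ SCs. All Slug-/- arrays of *Slc25a4* lay above all Slug+/+ arrays as well, but the difference of 0.23 ± 0.17 (SE) had an unadjusted p of 0.218. *Slc25a3*, the phosphate carrier, read 7.39, 7.15 and 7.57 in Slug-/- SCs, against 7.51, 7.37 and 7.61 in Slug+/+ SCs, so the groups overlapped, with a 95% interval of -0.55 to 0.30 for the difference. *Slc25a31* (Ant4), the testis form, was under background on all arrays, at 1.96, 2.24 and 2.04 in Slug-/- SCs, against 2.13, 1.99 and 2.23 in Slug+/+ SCs.

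A second set of adenine nucleotide carriers exchanges ATP-Mg for phosphate, and the 3 with a signal in SCs bind calcium on the cytosolic side. *Slc25a25* read 4.61, 5.09 and 5.18 in Slug-/- SCs, against 4.59, 4.14 and 4.53 in Slug+/+ SCs. Replicate 1 of Slug-/- SCs was only just above the highest Slug+/+ array, and the difference was 0.54 ± 0.22 (SE; 95% interval 0.02 to 1.07), or 1.46-fold higher (unadjusted p = 0.0433; adjusted p = 0.858). That unadjusted p stayed under 0.05 in 9 of 18 alternatives. *Slc25a23* read 5.26, 5.80 and 6.35 in Slug-/- SCs, against 5.69, 4.07 and 4.998 in Slug+/+ SCs. Its groups overlapped through Slug-/- replicate 1 and Slug+/+ replicate 1. The difference of 0.88 ± 0.44 (SE) had an unadjusted p of 0.0815. Dropping Slug-/- replicate 1 brought that p to 0.0447, and dropping Slug+/+ replicate 1 instead brought it to 0.0180. These were the only 2 of 18 alternatives with an unadjusted p under 0.05 for *Slc25a23*. Without Slug+/+ replicate 2 its difference was 0.46 (unadjusted p = 0.265), and without Slug-/- replicate 3 it was 0.61 (unadjusted p = 0.241). *Slc25a24* read 5.82, 5.73 and 5.46 in Slug-/- SCs, against 5.19, 5.68 and 6.002 in Slug+/+ SCs, with a difference of 0.05. *Slc25a41*, a relative without the calcium-binding part, was under background on all arrays. Over the 8 carriers of adenine nucleotides and phosphate the median difference was 0.14, and 2 passed an unadjusted p of 0.05, both higher.

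**Figure D3:**
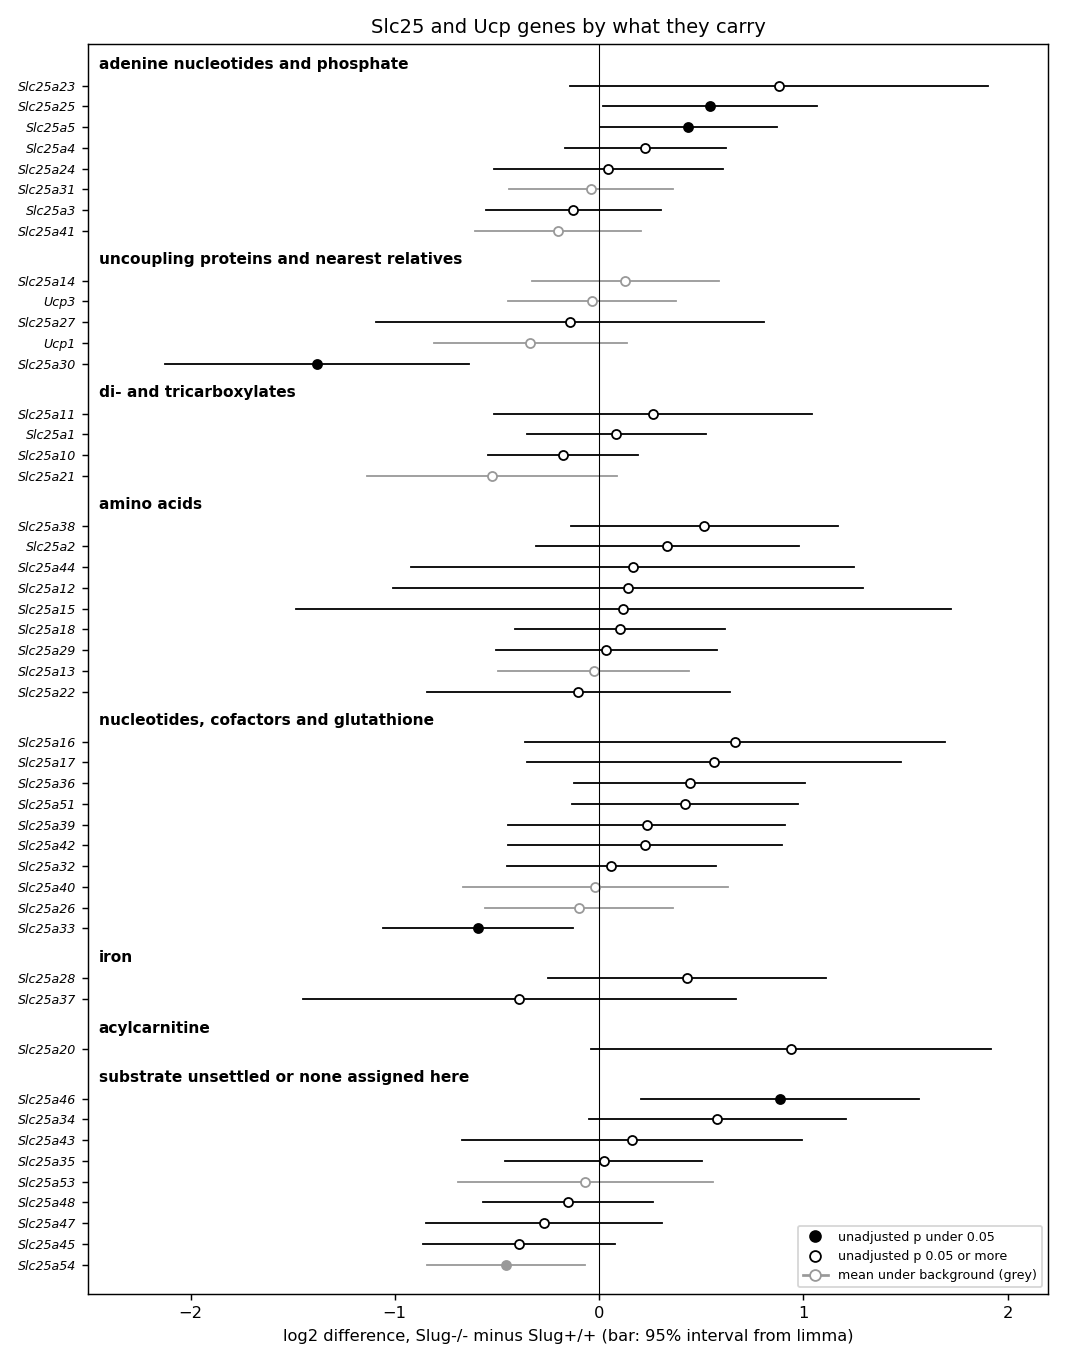
Log2 difference of Slug-/- minus Slug+/+ SCs (x axis) for the 48 carrier genes, grouped down the page by what they carry, with 95% intervals from limma as bars. Filled circles have an unadjusted p under 0.05, and grey marks a mean under the background guide. The intervals of 6 genes leave out 0, with *Slc25a30* farthest at -1.38, and the interval of *Slc25a20* (0.94) reaches -0.04.

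The pyrimidine nucleotide carriers are a pair of close relatives, of which 1 passed an unadjusted p of 0.05. *Slc25a33* (PNC1), which brings pyrimidine nucleotides into the matrix and is known to respond to growth signals, read 3.13, 3.35 and 3.67 in Slug-/- SCs, against 3.90, 3.89 and 4.14 in Slug+/+ SCs. No Slug-/- array reached the lowest Slug+/+ array, and the means were 3.38 ± 0.27 in Slug-/- SCs and 3.98 ± 0.14 in Slug+/+ SCs (SD, n = 3 each). The difference was -0.59 ± 0.20 (SE; 95% interval -1.06 to -0.13), with an unadjusted p of 0.0187 and an adjusted p of 0.823. The unadjusted p was 0.0662 when Slug-/- replicate 1 was dropped and 0.0612 when Slug+/+ replicate 3 was, and it stayed under 0.05 in the other 16 of 18 alternatives. Its relative *Slc25a36* (PNC2) read 5.91, 6.32 and 6.56 in Slug-/- SCs, against 6.09, 5.49 and 5.87 in Slug+/+ SCs. These groups overlapped at Slug-/- replicate 1, and the difference was 0.44 ± 0.24 (SE) with an unadjusted p of 0.107.

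Setting close relatives against each other on the same array takes out whatever moves both signals of an array by the same amount. The log2 ratio of *Slc25a33* over *Slc25a36* was -2.77, -2.97 and -2.89 on the Slug-/- arrays, against -2.19, -1.60 and -1.74 on the Slug+/+ arrays. The ratio was thus tighter among Slug-/- arrays than *Slc25a36* alone. Among Slug+/+ arrays it spread about as widely as *Slc25a36* alone and more widely than *Slc25a33* alone. The ratio changed by -1.04 between genotypes with no overlap. Of 13 pairs of relatives compared in this way, 4 had ratios that did not overlap, each with an exact two-sided permutation p of 0.1 and an adjusted p of 0.325. The other 3 such pairs each had at least 1 partner under background on all arrays: *Slc25a14* over *Slc25a30* (1.51), *Slc25a5* over *Slc25a31* (0.48) and *Ucp1* over *Ucp3* (-0.30). The ratio of *Slc25a4* over *Slc25a5* changed by -0.21 (exact p = 0.3), so a shift between the muscle form and the general form of the ADP/ATP carrier was not detectable with these arrays.

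**Figure D4:**
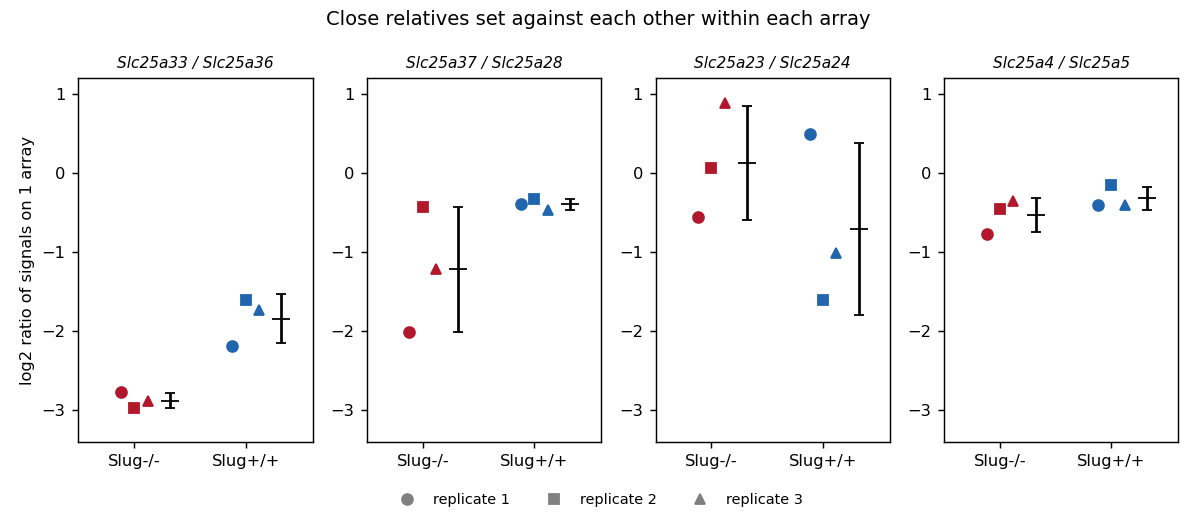
Log2 ratio of the signals of 2 close relatives on the same array (y axis), with Slug-/- arrays in red on the left of each panel and Slug+/+ arrays in blue on the right. Bars show mean ± SD of 3 arrays. The ratio of *Slc25a33* over *Slc25a36* lies between -2.97 and -2.77 on the Slug-/- arrays, below all Slug+/+ arrays, while the groups overlap in the other 3 panels.

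The other carriers of nucleotides, cofactors and glutathione had no member past an unadjusted p of 0.05. *Slc25a51*, which brings NAD into mitochondria, had a difference of 0.42 (95% interval -0.13 to 0.97), and *Slc25a42*, a carrier of coenzyme A, one of 0.23 (-0.45 to 0.90). *Slc25a16*, which has been linked to coenzyme A, differed by 0.67 with an unadjusted p of 0.172. Without Slug-/- replicate 1 that difference was 1.17, with an unadjusted p of 0.00615. In no other alternative was the unadjusted p of *Slc25a16* under 0.05. *Slc25a17*, a carrier of peroxisomes rather than mitochondria, differed by 0.56 (-0.35 to 1.48). *Slc25a39*, which brings glutathione into mitochondria, read 4.89, 5.15 and 5.67 in Slug-/- SCs, against 5.38, 4.52 and 5.10 in Slug+/+ SCs, so the groups overlapped. Its relative *Slc25a40* read 2.71, 2.05 and 3.13 in Slug-/- SCs, against 2.58, 2.59 and 2.78 in Slug+/+ SCs, above background on 1 array only. *Slc25a26*, the carrier of the methyl donor S-adenosylmethionine, was under background on all arrays, and *Slc25a32*, which is linked to folate and FAD, differed by 0.06. Of these 8 members 6 had a positive difference, with a median of 0.23.

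The carriers of di- and tricarboxylates, which link the tricarboxylic acid cycle to the cytosol, held no member past an unadjusted p of 0.05. *Slc25a1*, the citrate carrier that feeds fatty acid synthesis, read 5.97, 6.39 and 5.93 in Slug-/- SCs, against 5.95, 6.02 and 6.07 in Slug+/+ SCs. *Slc25a11*, the oxoglutarate carrier of the malate-aspartate shuttle, read 5.71, 6.62 and 6.86 in Slug-/- SCs, against 6.42, 5.72 and 6.26 in Slug+/+ SCs. Both sets of groups overlapped. *Slc25a10*, the dicarboxylate carrier, read 3.57, 3.69 and 3.61 in Slug-/- SCs, against 3.72, 3.79 and 3.88 in Slug+/+ SCs. Its groups were apart, but by a difference of only -0.18 ± 0.16 (SE) with an unadjusted p of 0.297. *Slc25a21*, the oxoadipate carrier of lysine breakdown, was above background on 1 array and differed by -0.52 (95% interval -1.14 to 0.09).

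Among the 9 amino acid carriers 7 had a positive difference, the median was 0.12 and none passed an unadjusted p of 0.05. The highest difference was that of *Slc25a38*, the glycine carrier needed for haem synthesis, at 0.52 (95% interval -0.14 to 1.17). *Slc25a12* (aralar), the aspartate-glutamate carrier of muscle and brain, read 3.17, 5.22 and 4.63 in Slug-/- SCs, against 4.49, 3.78 and 4.32 in Slug+/+ SCs. The Slug-/- arrays enclosed all Slug+/+ arrays, with replicate 1 the lowest of the 6. Its liver counterpart *Slc25a13* (citrin) was under background on all arrays, at 1.78, 2.31 and 2.203 in Slug-/- SCs, against 2.24, 2.17 and 1.97 in Slug+/+ SCs. Both glutamate carriers had overlapping groups. *Slc25a22* read 5.03, 4.63 and 5.74 in Slug-/- SCs, against 5.54, 5.32 and 4.84 in Slug+/+ SCs. *Slc25a18* read 3.55, 2.93 and 3.37 in Slug-/- SCs, against 2.94, 3.32 and 3.28 in Slug+/+ SCs. *Slc25a15*, the ornithine carrier of the urea cycle, had the widest interval of the family, -1.48 to 1.72. It read 2.92, 2.93 and 5.50 in Slug-/- SCs, against 2.99, 3.89 and 4.11 in Slug+/+ SCs. The ornithine carrier *Slc25a2* (0.33), the basic amino acid carrier *Slc25a29* (0.04) and *Slc25a44*, a carrier of branched-chain amino acids (0.17), also had intervals that include 0.

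The mitoferrins bring iron into the matrix for haem and iron-sulphur clusters. *Slc25a28* (mitoferrin 2), the general form, read 6.52, 6.55 and 7.09 in Slug-/- SCs, against 5.79, 6.79 and 6.29 in Slug+/+ SCs. *Slc25a37* (mitoferrin 1), the form of red cell precursors, read 4.51, 6.12 and 5.88 in Slug-/- SCs, against 5.40, 6.47 and 5.82 in Slug+/+ SCs. Both sets of groups overlapped, with differences of 0.43 and -0.39. The direction for *Slc25a37* turned when Slug-/- replicate 1 was left out, to a difference of 0.11. The log2 ratio of *Slc25a37* over *Slc25a28* changed by -0.82 (exact p = 0.2), and it ran from -2.01 to -0.43 in Slug-/- SCs, against -0.47 to -0.32 in Slug+/+ SCs. Without Slug-/- replicate 1 the ratio changed by -0.42.

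*Slc25a20*, which carries acylcarnitines into the matrix for fatty acid oxidation, was above background on 3 of 6 arrays, 1 of them a Slug+/+ array. It read 2.86, 4.56 and 3.998 in Slug-/- SCs, against 2.74, 3.25 and 2.61 in Slug+/+ SCs. Slug-/- replicates 2 and 3 lay above all Slug+/+ arrays, while replicate 1 was under background and within the Slug+/+ range. The difference was 0.94 ± 0.42 (SE; 95% interval -0.04 to 1.92) with an unadjusted p of 0.0575. With values under the background guide raised to it, the difference was 0.76. Without Slug-/- replicate 1 it was 1.41 with an unadjusted p of 0.00199. The unadjusted p was 0.0228 with the replicate numbers as a block, 0.0453 with an intensity trend in limma and 0.0493 with array medians subtracted. It was not under 0.05 in the other alternatives, among them the plain unpaired test, quantile normalization and each of the other arrays left out.

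Among the members whose cargo is unsettled, *Slc25a46* stood out by its position in the cell, since its protein sits in the outer mitochondrial membrane and is known for a part in mitochondrial fission and shape. It read 5.75, 5.55 and 6.55 in Slug-/- SCs, against 4.77, 5.26 and 5.16 in Slug+/+ SCs. The groups were apart, with Slug-/- replicate 3 the highest of the 6 arrays. The means were 5.95 ± 0.53 in Slug-/- SCs and 5.07 ± 0.26 in Slug+/+ SCs (SD, n = 3 each). The difference of 0.89 ± 0.29 (SE; 95% interval 0.21 to 1.56) is 1.85-fold higher (unadjusted p = 0.0171; adjusted p = 0.823). Without Slug-/- replicate 3 the difference was 0.58, and the unadjusted p stayed under 0.05 in 16 of 18 alternatives.

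*Slc25a54*, a relative of the ATP-Mg carriers with no role given here, read 1.93, 2.18 and 2.11 in Slug-/- SCs, against 2.63, 2.44 and 2.52 in Slug+/+ SCs. The groups were apart and the difference was -0.46 ± 0.17 (SE) with an unadjusted p of 0.0267, yet all 6 values were under the background guide. That unadjusted p stayed under 0.05 in 11 of the 16 alternatives that gave a value, and it was 0.0855 without Slug-/- replicate 1. *Slc25a34* read 2.97, 4.01 and 3.37 in Slug-/- SCs, against 2.86, 2.96 and 2.80 in Slug+/+ SCs, with a difference of 0.58 ± 0.27 (SE) and an unadjusted p of 0.0668. Only Slug-/- replicates 2 and 3 of *Slc25a34* were above the guide. The other 6 members measured in this group had intervals that include 0.

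With all 48 members placed by RefSeq, 4 pairs were neighbours on a chromosome, and in none of them did both genes pass an unadjusted p of 0.05. *Slc25a5* (0.44) lies beside *Slc25a43* (0.16; unadjusted p = 0.662), *Slc25a54* (-0.46) beside *Slc25a24* (0.05; 0.854), *Slc25a23* (0.88) beside *Slc25a41* (-0.20) and *Slc25a47* (-0.27) beside *Slc25a29* (0.04).

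The count of carriers at that level rested in part on 1 Slug-/- array. Without Slug-/- replicate 1, 8 members were higher at an unadjusted p under 0.05, as were 3.34% of all genes in that fit, and 1 was lower, as were 2.24% of all genes. The 8 were *Slc25a12*, *Slc25a16*, *Slc25a20*, *Slc25a23*, *Slc25a25*, *Slc25a34*, *Slc25a36* and *Slc25a46*, and *Slc25a30* was the lower one. *Slc25a5* was not among them, with an unadjusted p of 0.138. Leaving out each of the other 5 arrays in turn gave 1 to 3 higher members, as were 2.55% to 3.98% of all genes. The fit without Slug+/+ replicate 3 gave 1 higher member, where 3.98% of all genes were higher. *Slc25a30* was the only member lower at an unadjusted p under 0.05 in all 6 of these fits.

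For comparison, 31 of 36 listed genes of other mitochondrial transport and import systems were measured, among them the pyruvate carrier, the porins, the calcium uniporter and the protein translocases. Of these, 2 were higher at an unadjusted p under 0.05 (6.45%), against 3.31% of all genes. In the same list 0 were lower, against 2.49% of all genes, and the median difference was 0.11. *Mtch1*, a distant relative of the carriers in the outer membrane, read 7.32, 7.43 and 7.77 in Slug-/- SCs, against 7.14, 6.73 and 6.88 in Slug+/+ SCs (difference 0.59, adjusted p = 0.823). *Smdt1*, a subunit of the calcium uniporter, read 4.88, 5.001 and 5.20 in Slug-/- SCs, against 4.30, 4.12 and 4.81 in Slug+/+ SCs (difference 0.62, adjusted p = 0.824). The groups were apart for both genes. In the whole list 3 genes were apart and higher (9.68%), against 5.24% of all genes, and 0 were apart and lower, against 5.4%. The 18 positive differences of 31 (58.1%) were close to the share in the carrier family (58.3%). Among all genes 48.4% were positive, and 54.0% among the genes with a mean above the background guide.

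Markers of other cells were read beside these values, and their part in the carriers' differences was not tested. The 9 muscle fibre markers summed to 7.37 to 7.90 in Slug-/- SCs and 7.50 to 7.56 in Slug+/+ SCs, with 2 of them under background on all arrays. The 7 macrophage markers summed to 6.40 to 7.17 in Slug-/- SCs and 6.90 to 7.31 in Slug+/+ SCs. *Ptprc*, *Itgam*, *Adgre1* and *Csf1r* were under background on all arrays. *Cd68*, a lysosomal protein of macrophages and other cells, was the 1 macrophage marker with an unadjusted p under 0.05, at 5.58, 5.34 and 5.58 in Slug-/- SCs, against 6.44, 6.86 and 6.09 in Slug+/+ SCs (adjusted p = 0.726). The 6 adipocyte markers summed to 6.54 to 7.34 in Slug-/- SCs and 6.26 to 7.14 in Slug+/+ SCs, with 4 under background on all arrays. The 5 endothelial markers summed to 7.61 to 8.13 in Slug-/- SCs and 7.61 to 8.21 in Slug+/+ SCs, and the 4 measured fibro-adipogenic markers to 10.1 to 10.7 in Slug-/- SCs and 10.2 to 10.7 in Slug+/+ SCs. *Lum*, a matrix protein of fibroblasts, was the 1 of these with an unadjusted p under 0.05 (difference 1.05, adjusted p = 0.858). It read 4.43, 4.92 and 3.20 in Slug-/- SCs, against 3.64, 2.96 and 2.80 in Slug+/+ SCs, so the groups overlapped. Of 6 erythroid markers only *Slc4a1* was measured, at 2.35 to 2.75 in Slug-/- SCs and 2.34 to 3.67 in Slug+/+ SCs. In each of these lists the ranges of the summed signals overlapped between the groups. Signals were summed before the log was taken, so the brightest marker of a list weighs most. In the fibro-adipogenic list that was *Dcn*, with a mean of 10.3, against 3.66 for *Lum*. The overlap of the sums thus says little of the dimmer markers. For single markers the groups were apart for 1 of 7 macrophage and 2 of 6 adipocyte markers, all lower in Slug-/- SCs. They were apart for 1 of 5 endothelial markers, which was higher. Of all genes, 5.4% were apart and lower and 5.24% apart and higher.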

How the data were processed

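RNA of sorted SCs was hybridised to Affymetrix Mouse Gene 2.0 ST arrays, 3 Slug-/- and 3 Slug+/+. The authors ran Affymetrix's Gene Expression Console and deposited log2 values for each probe set on each array. Which algorithm they chose there was not stated in what was read, and summarising steps of this kind can shrink differences between dim signals. Groups and replicates come from the labels, and 0 sample columns were left unused.

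Names came from the annotation of the array platform, where 23521 of 41345 probe sets had exactly 1 symbol. The brightest probe set over the 6 arrays stood for each of 22180 genes, 1082 of which had more than 1 (no carrier did). Genotypes were compared by limma 3.58.1 under R 4.3.3, using lmFit and eBayes with no covariate and Benjamini-Hochberg adjustment over all genes. The fit was tested on simulated data of the same genes, 200 of them changed. At a log2 change of 1, 84.5% of these passed limma's unadjusted p of 0.05 and 0% its adjusted p of 0.05. At a log2 change of 2 the shares were 98.5% and 76%. A fold of 2 could thus be missed after adjustment. Thresholds were an unadjusted p of 0.05, the same with a fold of 2, and an adjusted p of 0.05. Ratios of relatives were compared with exact permutation tests over 20 splits of the arrays, adjusted over 13 pairs. For microarrays the number of arrays limits the precision. Values on every array are given for members with an unadjusted p under 0.05 or a difference over 1, the 6 brightest and the close relatives whose ratios were compared. *Slc25a10*, *Slc25a15*, *Slc25a20* and *Slc25a34* were added after their values were seen, as were *Cd68* and *Lum*. Alternatives changed the test, the choice and filter of probe sets, the scaling and the replicate block, and left out each array in turn. For the carriers, those in the choice of probe set reused the same values, so each tally holds near repeats of the main fit. The members, gene lists, tests and alternatives were chosen with earlier results of these data known.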

Additional observations from a re-analysis of the deposited data

How the results depend on the processing

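With 3 arrays in each group, no adjusted p passed 0.05 for any carrier in the main analysis or in the 18 alternatives. Members higher in Slug-/- SCs at an unadjusted p under 0.05 numbered 3, against 3.31% of all genes. They numbered 1 under the plain unpaired test (2.66% of all genes) and 1 among genes above the median signal (4.36% of those genes). With array medians subtracted they numbered 5 (4.09%), and 1 to 8 when 1 array was left out (2.55% to 3.98%). Lower members numbered 3 (2.49% of all genes), and 1 to 4 when 1 array was left out (2.05% to 3.48%). With a fold of 1.5 in place of 2, 3 members passed both thresholds, and the share of all genes at that fold is not given here. The fold of 2 was passed by 1 member with all arrays (199 of 22180 genes). When 1 array was left out, 1 to 4 members passed it (248 to 391 of 22180 genes). Members whose arrays did not overlap numbered 12 to 18 with 1 array fewer, where 19.2% to 24.0% of all genes did not overlap, by construction more than with all arrays (9 members). The median difference ran from -0.00173 (without Slug-/- replicate 3) to 0.13 over these fits, within the spread between arrays of 1 genotype. Subtracting array medians moved the calls over all genes to 907 higher and 405 lower, against 734 and 552, and the median over all genes to 0.04. *Slc25a54* had no difference once values were raised to background, an alternative added after the data were seen, in which 9 members had no value.

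Changes of sign were followed in 27 of the 48 members. These were the members with an unadjusted p under 0.05 or groups apart, the 6 brightest and the close relatives. The other members were not followed, so those named below are not a full list for the family. Among the 27 some differences changed sign, of which the widest with all arrays were *Slc25a37* (-0.39) and *Slc25a39* (0.23). Under quantile normalization *Slc25a24* was at -0.0230, *Ucp3* at 0.0141, *Slc25a40* at 0.0193 and *Slc25a13* at 0.00888. With array medians subtracted *Ucp3* was at 0.0124, *Slc25a40* at 0.0282, *Slc25a13* at 0.0219 and *Slc25a31* at 0.00934, and with values raised to background *Slc25a40* was at 0.0309. When 1 array was left out, differences ran from -0.0637 to 0.17 for *Slc25a1*, -0.70 to 0.11 for *Slc25a37*, -0.17 to 0.24 for *Slc25a24*, -0.40 to 0.15 for *Slc25a22*, -0.00780 to 0.42 for *Slc25a39*, -0.30 to 0.73 for *Slc25a12*, -0.0311 to 0.28 for *Slc25a18*, -0.15 to 0.0278 for *Ucp3*, -0.27 to 0.27 for *Slc25a40*, -0.0107 to 0.24 for *Slc25a14*, -0.13 to 0.13 for *Slc25a13* and -0.12 to 0.0232 for *Slc25a31*. The cause was not tested.

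Arrays of the same replicate number deviated from their group means with correlations of 0.03, 0.02 and 0.14, so the numbers were not taken to pair the samples. With the replicate block 3 members were higher, as were 3.83% of all genes, and 2 lower, as were 2.68%: *Slc25a20* entered (unadjusted p = 0.0228), and *Slc25a25* (0.0663) and *Slc25a54* (0.0542) left.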
